A study of Saccharomyces cerevisiae with 12 samples.

Results

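The comparison described here was between the genotypes of chronologically aged budding yeast cells, the *tra1Q3* mutant and its *TRA1* control, at day 3 of culture. It used 6 of the 12 RNA sequencing libraries of the study, replicates 1, 2 and 3 of *TRA1* and replicates 2, 3 and 4 of *tra1Q3*, and it was set within day 3, with no cell of day 0 in the fit. A gene entered the test when it had at least 10 counts in at least 3 of these 6 libraries, which 6208 of the 6691 genes of the deposited table did. Every fold change below is *tra1Q3* over *TRA1*, on the log2 scale unless a linear fold is named.

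By the study's strain list, both strains were W303A derivatives of mating type MATa with the marker alleles ade2-1, can1-100 and trp1-1 together with leu2-3, his3-11 and ura3-1. In both, a FLAG-tagged *TRA1* allele flanked by *URA3* and *HIS3* had been integrated at the locus, and both carried the *LEU2* plasmid YCplac111 with the neighbouring gene *YHR100* (*GEP4*) under the *DED1* promoter. The study's strain list prints the same *TRA1* genotype for both W303A strains, so the mutant is known here by its sample labels. The *tra1Q3* allele encodes glutamine in place of 3 arginines in the PI3K domain of Tra1. Saturated cultures were diluted into synthetic medium with 2% glucose that lacked leucine, grown further, and sampled at day 0 and at day 3 for sequencing of polyadenylated RNA. The sample labels describe mid-log growth in complete medium instead, and name another RNA kit. There were 3 cultures a group, which the study terms biological replicates, and no label says whether a culture was a separate clone. The p-values set the difference between the genotypes against the spread between these cultures.

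Tra1 is a large PI3K-related protein without kinase activity that brings the histone acetyltransferase complexes SAGA and NuA4 to promoters bound by transcriptional activators. Yeast held in spent medium first ferments glucose and then respires the ethanol and acetate it made, which calls for the glyoxylate cycle and gluconeogenesis, and cells that enter quiescence store trehalose and glycogen, lower ribosome synthesis and raise protective proteins. How long such non-dividing cells stay viable is their chronological lifespan.

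The day 3 libraries held between 20662125 and 27375850 counts. The *TRA1* libraries were less alike than the *tra1Q3* libraries: replicate 2 of *TRA1* differed more than 2-fold from replicate 1 at 355 genes and from replicate 3 at 459 genes, while *TRA1* replicates 1 and 3 differed by that much at 59 genes, and the *tra1Q3* pairs at 37 to 57 genes. Relative to the mean of the other *TRA1* replicates, replicate 2 was over 2-fold higher at 198 genes and over 2-fold lower at 177 genes. Its ribosome biogenesis genes had a median deviation of 0.86 (log2) and its glyoxylate cycle genes one of -1.02, so it is named wherever it changed a result. All 6 cultures carried RNA of the stationary phase genes *HSP12* and *SPG4*, with no library at 0, but presence alone does not mark stationary phase. Scaled over all 12 libraries, the summed counts of the hydrophilin and stationary phase genes were 43761 to 55207 at day 0. At day 3 they were 644001 to 769451 in *TRA1* and 426403 to 463376 in *tra1Q3* cells. Whether both genotypes had reached the same phase was not tested.

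*TRA1* itself (YHR099W, chrVIII:302761-313995) had normalized counts of 13305, 14166 and 14339.5 in *TRA1* and 46487, 47739.7 and 45807 in *tra1Q3* cells (log2 fold change 1.74, SE 0.11, adjusted p = 1.29e-05 by the quasi-likelihood test of edgeR, with the adjustment of Benjamini and Hochberg, as for every adjusted p below). The *tra1Q3* values were all about 3-fold above the *TRA1* values. A gene count does not read the substituted codons, so this check bears on the level of the transcript and not on which allele was present. The next gene, *GEP4* (YHR100C), which encodes a mitochondrial phosphatase of cardiolipin synthesis and is the one supplied on the plasmid, had 8974, 10360.0 and 7734 in *TRA1* and 31721, 31951 and 32868 in *tra1Q3* cells (log2 fold change 1.83, SE 0.14, adjusted p = 2.49e-05). It was singled out after its values were seen, and reads from the plasmid and the chromosome are counted together. The plasmid and marker genes differed less: *LEU2* had 10529, 15867 and 10585 against 18232, 13727 and 15294, *HIS3* 3156, 3703 and 2777 against 4369, 4066 and 4292 and *URA3* 7601, 7934 and 6642 against 9898, 9906 and 10455, none of them called, and *LEU2* overlapped between the genotypes. The coding sequence of *HIS3* overlaps another one, by 44 bases.

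The mating genes were checked against the MATa label. Scaled over all 12 libraries, the summed counts of the 7 a-specific genes were 7631 to 8742 in aged *TRA1* and 30934 to 38383 in aged *tra1Q3* cells, and those of the 4 alpha-specific genes, which MATa cells keep off, were 2691 to 3136 and 10985 to 13443. Both sets were thus present in all 6 libraries and higher in *tra1Q3*, and no a-specific gene was at 0. At day 0 the alpha-specific sums were already 1156 to 1203 in *TRA1* and 19629 to 21610 in *tra1Q3* cells. The a-specific sums were then 27753 to 29594 and 62763 to 65928 in the same order. The mating type of the cultures was not tested. *STE2*, for the receptor of alpha factor, had 1417, 1493 and 1355 in *TRA1* and 9385, 7691 and 8485 in *tra1Q3* cells (log2 fold change 2.58, SE 0.11, adjusted p = 3.34e-06), and *BAR1*, for the protease that degrades alpha factor, was at 2.63. Of the alpha-specific genes, *SAG1*, for alpha agglutinin, had 1738, 2069.5 and 1889 in *TRA1* and 9351, 7556 and 7947 in *tra1Q3* cells (log2 fold change 2.13, SE 0.12, adjusted p = 8.03e-06). *MF(ALPHA)1*, for alpha factor itself, was at 2.94, *STE3*, for the receptor of a-factor, at 2.90 with 272 bases shared with another gene, and *MF(ALPHA)2* was not called (-0.60). All 7 a-specific genes and 3 of 4 alpha-specific genes were called higher, and the calls of the a-specific genes *STE6* and *ASG7* were lost with library totals. The part of these genes in the results below was not tested.

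At day 3 the genotypes differed at a large share of the genome. An adjusted p of at most 0.05 was reached by 4436 of 6208 genes (71.5%), and 1986 genes (32.0%) also differed by more than 2-fold and are termed called here, 1018 of them higher (16.4%) and 968 lower (15.6%) in *tra1Q3* cells. Normalized counts did not overlap between the genotypes at 4795 genes (77.2%), 2379 higher (38.3%) and 2416 lower (38.9%), a share against which non-overlap of a single gene has to be read. Likewise, the count of called members of every list below has to be read against 16.4% higher and 15.6% lower over all genes. Counts were scaled by the trimmed mean of M values (TMM), which placed the median fold change of all genes at -0.02. Scaling by library totals moved that median to -0.31 and the split to 702 higher and 1463 lower, so directions are relative to the typical gene. From these counts, a change in each cell cannot be told apart from a change in the total RNA per cell or in the share of cells that contribute RNA.

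**Figure D1:**
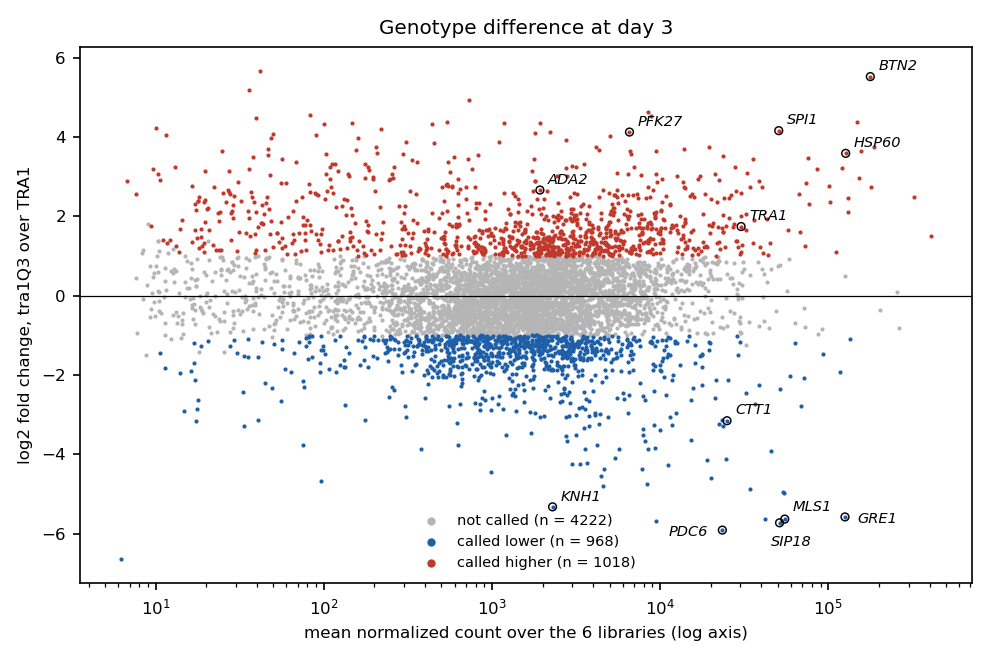
Log2 fold change of *tra1Q3* over *TRA1* at day 3 (vertical axis) against the mean normalized count of the 6 libraries (horizontal log axis), 1 point a gene. Red points are the 1018 genes called higher, blue points the 968 called lower and grey points the genes not called; the lowest labelled points, *PDC6*, *SIP18* and *MLS1*, were abundant transcripts of aged *TRA1* cells.

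Called genes with at least 100 normalized counts in the higher genotype were ranked by fold. Those whose counts overlapped between the genotypes, or whose coding sequence overlapped another, were left out, so non-overlap of the ranked genes was set by the choice. The highest was *BTN2* (YGR142W, chrVII:772454-773686), which encodes a sorting factor that gathers misfolded proteins into deposits. Its counts were 7711, 8749 and 6189.7 in *TRA1* and 361370.1, 328910.4 and 353599 in *tra1Q3* cells, a difference of 46.1-fold (log2 fold change 5.53, SE 0.23, adjusted p = 3.40e-06). Every *tra1Q3* library exceeded every *TRA1* library by more than 30-fold. Also among the 10 highest were *SPI1*, a cell wall protein gene induced in stationary phase, with 5569, 5929 and 4599.6 in *TRA1* and 96036, 92564 and 99791 in *tra1Q3* cells, *PFK27*, for the kinase that makes fructose 2,6-bisphosphate, with 605, 1038 and 491 against 12571, 12069 and 12657 in the same order, and *TIP1*, a cell wall mannoprotein gene, with 609, 625 and 492 against 11675, 7292 and 9331. In all 3 genes the genotypes were far apart, and *TIP1* varied most among the *tra1Q3* libraries. The other 6 were *YJL213W* (4.36), *YDR344C* (4.34), the mitochondrial reading frame *Q0092* (4.33), the retrotransposon frame *YAR009C* (4.13), *YGR146C-A* (3.86) and *AIM17* (3.76). Only 7.96% of the 100-base windows of *YAR009C* occur once in the genome, so its counts may come from other copies of the element.

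Among called genes with at least 100 normalized counts in the higher genotype and no overlap in counts or coding sequence, the largest fall was that of *PDC6* (YGR087C, chrVII:651290-652981), a minor isoform of pyruvate decarboxylase. It had 53745, 14731 and 69869 in *TRA1* and 725, 792 and 778 in *tra1Q3* cells (log2 fold change -5.91, SE 0.60, adjusted p = 1.01e-04). The lowest *TRA1* value, that of replicate 2, was still many times the highest *tra1Q3* value, and without that library the fold change was -6.34. The hydrophilin genes *SIP18* and *GRE1*, whose products protect dried cells, were also among the 10 lowest. *SIP18* had 96025, 135099.6 and 70969 in *TRA1* and 1725, 2058 and 1910.1 in *tra1Q3* cells, and *GRE1* had 237123, 267055 and 234488 against 4487, 5612 and 5324 in the same order. Every *TRA1* library held over 10-fold more of each than any *tra1Q3* library. Among the other 7, *MLS1*, *ICL1* and *PCK1* belong to carbon metabolism and are described with their pathway, *SPS100* (-4.96) encodes a spore wall protein, *KNH1* (-5.33) a cell wall glucan synthesis protein, and *YDL218W* (-5.68) and *DPA10* (-5.65) were lower as well. *DPA10* had 117597, 32047 and 96745 against 1614, 1665 and 1641, with *TRA1* replicate 2 far below the other *TRA1* values and still over 10-fold above *tra1Q3*.

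**Figure D2:**
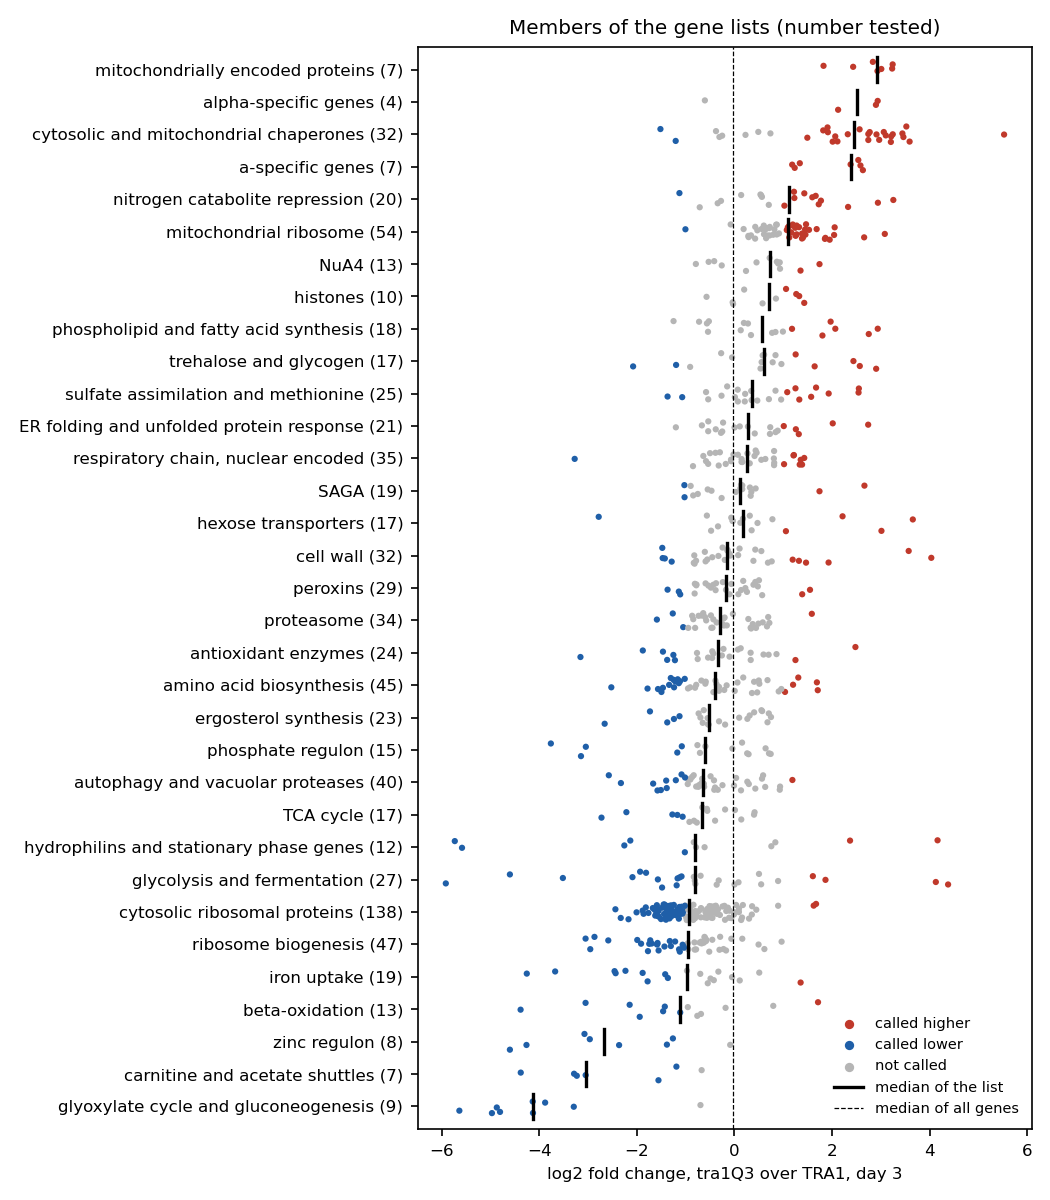
Log2 fold change of *tra1Q3* over *TRA1* at day 3 for the members of 33 gene lists, 1 point a gene, with the number tested in parentheses, the median of each list as a black bar and the median of all genes as a dashed line. Mitochondrially encoded and chaperone genes lie to the right (2.93 and 2.44) and glyoxylate cycle, carnitine and zinc genes to the left (-4.13, -3.05 and -2.66).

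Chaperone genes were higher in aged *tra1Q3* cells. Of 32 genes for cytosolic and mitochondrial chaperones and their cochaperones, 24 were called higher and 2 lower, with a median of 2.44 against -0.02 over all genes. Their summed counts made up 3.69%, 2.78% and 3.69% in the *TRA1* libraries and 13.9%, 13.1% and 13.7% in the *tra1Q3* libraries. No *TRA1* library came near the *tra1Q3* share, which was 13.6% ± 0.384 (SD, n = 3) against 3.39% ± 0.526 in *TRA1*. A list of 13 genes of misfolded protein stress had 12 members called higher and 0 lower. That list was chosen by the study on these cultures, so its count is no independent evidence of its direction. Most of its members are also among the 32 chaperone genes, so the count of those 32 is not independent of that choice either.

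The chaperones that were higher sat in several compartments. *HSP60*, for the chaperonin of the mitochondrial matrix, had 19156, 20700.2 and 18522 in *TRA1* and 246084, 223114 and 233907 in *tra1Q3* cells (log2 fold change 3.59, SE 0.17, adjusted p = 4.68e-06), and *HSP78*, for the matrix disaggregase, had a fold change of 3.21. *SSA4*, for a stress-inducible cytosolic Hsp70, had 14573, 9222 and 14163 in *TRA1* and 130572, 143309 and 144795 in *tra1Q3* cells (log2 fold change 3.46, SE 0.22, adjusted p = 1.43e-05). For both, all *tra1Q3* values were more than 8-fold above all *TRA1* values. *FES1*, for the nucleotide exchange factor of cytosolic Hsp70, was at 3.44, and *APJ1*, for an Hsp40 cochaperone, at 3.25. *CPR6*, for a cyclophilin that binds Hsp90, was at 3.52, but 303 bases of its coding sequence are shared with another gene and the call is uncertain where strand was not used in counting. *SSA3*, which encodes another stress-inducible Hsp70, was not called (0.49). *SSB1*, for an Hsp70 bound to translating ribosomes, went the other way, with 3349, 5501 and 3730.1 in *TRA1* and 1505, 1439.8 and 1454 in *tra1Q3* cells (log2 fold change -1.52, SE 0.18, adjusted p = 2.54e-04), and *TRA1* replicate 2 was the highest of the 6 libraries. Its coding sequence shares 630 bases with another one.

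Heat shock factor Hsf1 binds inverted repeats of a GAA unit. The contiguous form searched here was GAA, TTC and GAA in this order, each 2 bases of any kind apart, on both strands, in the 250 bases before and 50 bases after each start codon. It was present in 0.751% of 6662 nuclear promoters (50) and in 8 of the 32 chaperone promoters. The share was 1.91% among genes called higher and 0.517% among genes called lower. A match is a description of the sequence and not a measured binding site. The promoters of the called chaperone genes of largest fold that hold the element are shown to let the element be read in place, from the RefSeq R64 reference of strain S288C, 5′ to 3′ along the gene, with the element in capitals.
HSP60 promoter, chrXII:664953-665252, minus strand: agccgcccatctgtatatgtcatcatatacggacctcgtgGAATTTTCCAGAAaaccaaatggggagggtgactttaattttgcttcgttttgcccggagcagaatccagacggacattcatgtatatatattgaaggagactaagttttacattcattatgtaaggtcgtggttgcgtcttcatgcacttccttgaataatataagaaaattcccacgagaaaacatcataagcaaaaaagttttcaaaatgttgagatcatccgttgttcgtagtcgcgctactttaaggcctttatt
FES1 promoter, chrII:444644-444943, minus strand: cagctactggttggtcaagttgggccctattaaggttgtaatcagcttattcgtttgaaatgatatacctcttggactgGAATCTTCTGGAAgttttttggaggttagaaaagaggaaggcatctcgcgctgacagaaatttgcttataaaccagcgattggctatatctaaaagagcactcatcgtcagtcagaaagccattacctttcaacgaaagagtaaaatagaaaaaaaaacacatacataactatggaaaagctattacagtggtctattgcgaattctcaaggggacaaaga
HSP78 promoter, chrIV:974194-974493, minus strand: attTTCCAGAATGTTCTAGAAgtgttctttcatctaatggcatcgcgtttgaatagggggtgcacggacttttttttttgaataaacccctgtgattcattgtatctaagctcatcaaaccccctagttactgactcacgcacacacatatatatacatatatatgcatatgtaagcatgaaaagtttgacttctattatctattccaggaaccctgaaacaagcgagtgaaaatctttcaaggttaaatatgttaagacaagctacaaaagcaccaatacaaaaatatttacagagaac
In HSP78 the capitals cover 2 overlapping matches on opposite strands, in HSP60 and FES1 a single one.

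Genes of the glyoxylate cycle and gluconeogenesis, which turn acetate into sugar once glucose is gone, were far lower in aged *tra1Q3* cells. Of 9 genes, 8 were called lower and 0 higher, with a median of -4.13. *MLS1* (malate synthase) had 130192, 79067 and 114793 in *TRA1* and 2185, 2135 and 2196 in *tra1Q3* cells (log2 fold change -5.64, SE 0.24, adjusted p = 3.40e-06). *ICL1* (isocitrate lyase) had 139107, 57311 and 120942 in *TRA1* and 3572, 3058 and 3506 in *tra1Q3* cells (log2 fold change -4.97, SE 0.37, adjusted p = 2.45e-05), and *PCK1* (phosphoenolpyruvate carboxykinase) had 81962, 39248 and 77239 against 2095, 2393 and 2304 in the same order (log2 fold change -4.87, SE 0.32, adjusted p = 1.45e-05). In all 3, *TRA1* replicate 2 was the lowest *TRA1* library and was still over 10-fold above the highest *tra1Q3* library. *SFC1*, for the succinate and fumarate carrier, was at -4.80, *MDH2* at -4.13, *ACS1*, for an acetyl-CoA synthetase, at -4.13, *IDP2* at -3.88 and *FBP1*, for fructose-1,6-bisphosphatase, at -3.29. *CIT2*, for the peroxisomal citrate synthase, differed least, with 88111, 62566 and 83219.5 in *TRA1* and 49667, 46136 and 48654 in *tra1Q3* cells (log2 fold change -0.70, SE 0.17, adjusted p = 0.00754), and was not called. The 9 genes together took 2.57%, 1.53% and 2.35% in the *TRA1* libraries and 0.242%, 0.231% and 0.239% in the *tra1Q3* libraries. Without *TRA1* replicate 2 the count stayed at 8 lower and the median was -4.54.

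The carbon source response element, bound by Cat8 and Sip4 in derepressed cells, has the core CC and CCG with 6 bases of any kind between them. Searched on both strands in the same windows, it occurred in 10.8% of all nuclear promoters and in 1 of the 9 of this pathway (11.1%), that of *ACS1*, which is shown for that reason with the core in capitals.
ACS1 promoter, chrI:44973-45272, minus strand: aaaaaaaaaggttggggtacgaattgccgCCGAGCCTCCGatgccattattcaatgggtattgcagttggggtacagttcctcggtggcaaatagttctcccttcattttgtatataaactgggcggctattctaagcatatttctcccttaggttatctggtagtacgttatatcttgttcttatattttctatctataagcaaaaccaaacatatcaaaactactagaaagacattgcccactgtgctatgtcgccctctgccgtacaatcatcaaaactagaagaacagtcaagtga
The count says only that these letters were not in the other 8 windows.

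Acetyl units reach mitochondria through transporters and carnitine acetyltransferases, and these were lower as well. Of 7 genes, 6 were called lower, with a median of -3.05. *ADY2*, for the acetate transporter of the plasma membrane, had 11362, 6919 and 8131 in *TRA1* and 387, 479 and 405 in *tra1Q3* cells (log2 fold change -4.38, SE 0.22, adjusted p = 5.66e-06). The carnitine acetyltransferase genes *YAT2* and *YAT1* were at -3.29 and -3.23, and *CRC1*, for the mitochondrial carnitine carrier, at -3.05. *JEN1*, for the lactate transporter, was not called (-0.67). Leaving out *TRA1* replicate 2 left 5 of 7 lower.

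Fatty acid beta-oxidation, which in yeast takes place in peroxisomes, was unevenly lower. Of 13 genes, 7 were called lower and 1 higher (median -1.11), and without *TRA1* replicate 2, 8 lower and 2 higher. *POT1*, for the thiolase of the last step, had 14174, 19877 and 10584 in *TRA1* and 711, 728 and 702 in *tra1Q3* cells (log2 fold change -4.38, SE 0.24, adjusted p = 7.84e-06), and *POX1*, for the acyl-CoA oxidase of the first step, had 4752, 5313 and 4711 against 588, 579 and 616 in the same order (log2 fold change -3.05, SE 0.09, adjusted p = 3.00e-06). Each *TRA1* value lay over 5-fold above each *tra1Q3* value. The isomerase genes *ECI1* and *DCI1* were at -2.15 and -1.94. *FOX2*, for the multifunctional enzyme between them, was not called (-0.18). The genes of the half-transporters of the fatty acyl-CoA importer went in opposite directions. *PXA2* was higher, with 3165, 2846 and 3386 in *TRA1* and 9293, 11279.8 and 10249.6 in *tra1Q3* cells (log2 fold change 1.71, SE 0.11, adjusted p = 1.60e-05), and *PXA1* was called lower (-1.43). The half-site of the oleate response element, CGGNNNTNA on either strand, was found in 92.3% of the 13 promoters against 23.5% of all nuclear promoters.

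The peroxins, which build peroxisomes, had few calls. Of 29 *PEX* genes, 2 were called higher (6.90%) and 3 lower (10.3%), below the shares of all genes (16.4% and 15.6%). Their median was -0.17 (7 lower with library totals). *PEX11*, for the protein that divides and proliferates peroxisomes, had 3985, 3403 and 3884 in *TRA1* and 1469, 1389.7 and 1504 in *tra1Q3* cells (log2 fold change -1.37, SE 0.09, adjusted p = 1.56e-05). *PEX6* and *PEX25*, which act in receptor recycling and in membrane growth, were at 1.55 and 1.39. The 3 genes did not overlap between the genotypes, as was the case for 77.2% of all genes.

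**Figure D3:**
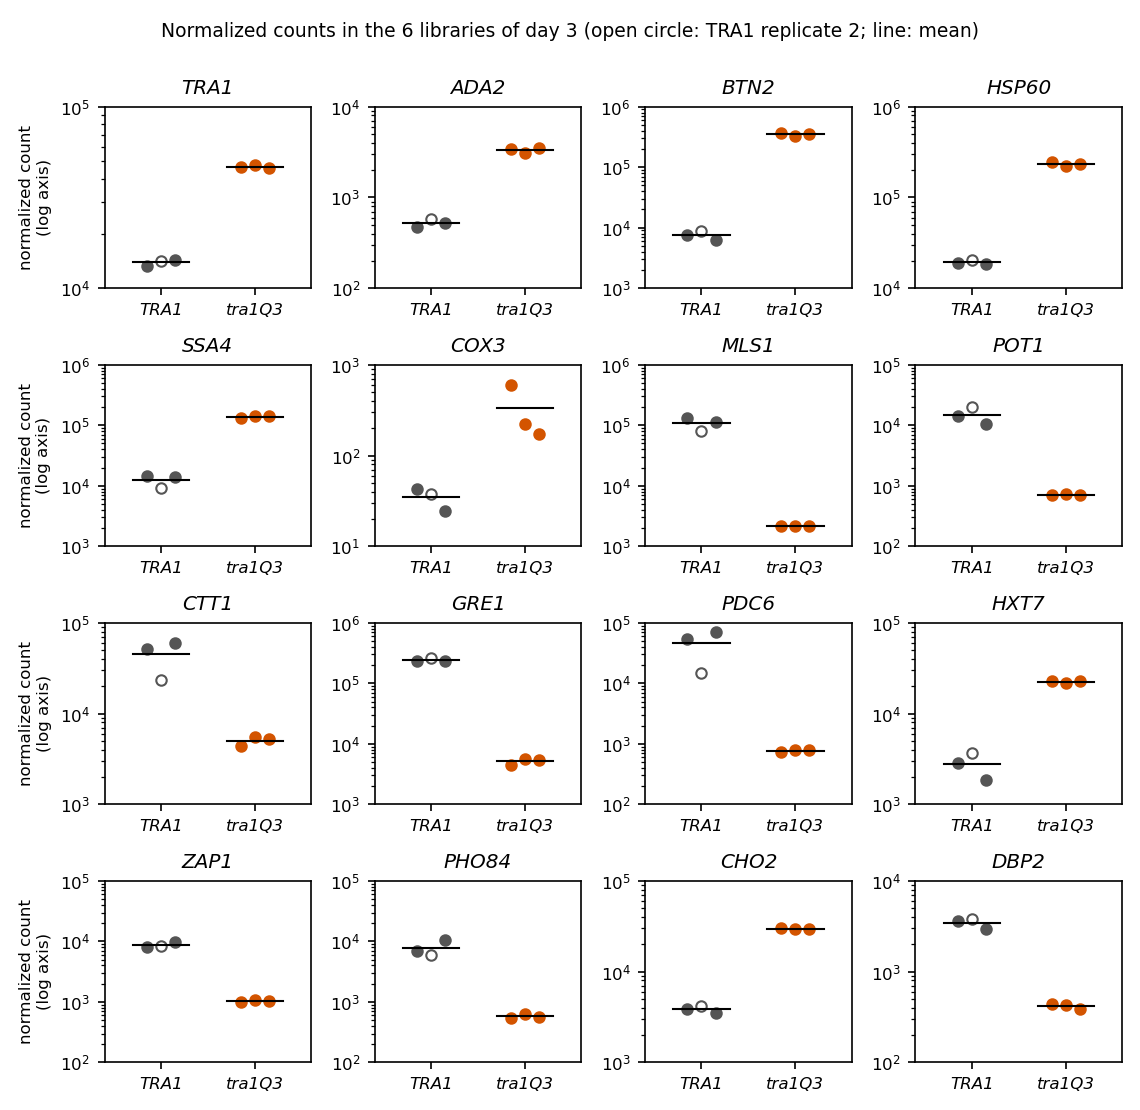
Normalized counts (log axis) of 16 genes in the 6 libraries of day 3, *TRA1* in grey and *tra1Q3* in orange, with the mean as a line and *TRA1* replicate 2 as an open circle. In all 16 panels the genotypes do not overlap, but the genes were chosen with earlier results known and 77.2% of all genes do not overlap. In *CTT1* and *PDC6* replicate 2 lies well below the other *TRA1* libraries, and in *COX3* 1 *tra1Q3* library lies well above the rest.

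Genes of the tricarboxylic acid cycle were lower in part. Of 17 genes, 5 were called lower and 0 higher (median -0.66). *ACO1*, for aconitase, had 69570.2, 56654 and 65884 in *TRA1* and 9830.4, 9584 and 9674 in *tra1Q3* cells (log2 fold change -2.72, SE 0.14, adjusted p = 5.66e-06), and the mitochondrial citrate synthase isoform *CIT3* was at -2.21. Their summed share of counts was 1.49% ± 0.0448 in *TRA1* and 0.693% ± 0.00757 in *tra1Q3* cells (mean and SD, n = 3). Every *tra1Q3* share lay below every *TRA1* share. With library totals 8 of the 17 were lower.

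Respiratory chain genes were mostly not called. Of 35 nuclear genes for its subunits, 7 were called higher and 1 lower (median 0.27), against 16.4% and 15.6% of all genes. The higher calls were thus near the share of all genes and the lower calls below it. With library totals 4 were higher and 2 lower (median -0.05). Without *TRA1* replicate 3, 2 were lower. *QCR9* and *COR1*, for subunits of the cytochrome bc1 complex, were at 1.43 and 1.39. *NDE2*, for an external NADH dehydrogenase, was the one called lower, with 21572, 19411 and 22995 in *TRA1* and 2115, 2367 and 2136 in *tra1Q3* cells (log2 fold change -3.27, SE 0.12, adjusted p = 3.00e-06). The proteins encoded in mitochondrial DNA were higher: of 8 genes, 7 passed the filter on low counts and 7 were called, with a median of 2.93. A gene could pass that filter through the 3 *tra1Q3* libraries alone, and *VAR1* had only 7.5, 23.6 and 10.3 in *TRA1*. *COX3*, for a cytochrome oxidase subunit, had 42.3, 37.8 and 24.4 in *TRA1* and 602, 221 and 171 in *tra1Q3* cells (log2 fold change 3.24, SE 0.54, adjusted p = 0.00121). Replicate 2 of *tra1Q3* was more than 2-fold above the other *tra1Q3* libraries, and all 3 exceeded *TRA1*. These transcripts were scarce in libraries selected by poly dT, at 0.0107% ± 0.00254 of counts in *TRA1* and 0.0460% ± 0.00520 in *tra1Q3* (SD, n = 3 each).

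Genes for the mitochondrial ribosome, which are nuclear, were higher. Of 54, 29 were called higher and 1 lower (median 1.09). *MRPL31*, for a protein of its large subunit, had 1377, 1535 and 1186 in *TRA1* and 11504, 11527 and 11674 in *tra1Q3* cells (log2 fold change 3.08, SE 0.12, adjusted p = 3.18e-06), and *MRPL1* was at 2.66. *MRPL16* was the one called lower, just past the threshold (adjusted p = 3.42e-04), and its call was lost at -0.88 without *TRA1* replicate 2 and at -0.97 without *tra1Q3* replicate 2 or 3. Without *TRA1* replicate 2, 35 were higher, and that library lay above the other *TRA1* libraries for these genes (median deviation 0.53). With library totals 15 were higher.

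Genes for the cytosolic ribosome were lower. Of 138 ribosomal protein genes, 63 were called lower and 2 higher (median -0.94), and of 47 genes for ribosome assembly and RNA polymerase I, 23 lower and 0 higher (median -0.96). The summed share of the ribosomal protein genes was 2.23%, 3.05% and 2.01% in the *TRA1* libraries and 1.21%, 1.21% and 1.20% in the *tra1Q3* libraries, and *TRA1* replicate 2 was the highest of the 6. *RPS1B*, for a protein of the small subunit, had 6289, 6958 and 6339 in *TRA1* and 1664, 1620.1 and 1595 in *tra1Q3* cells (adjusted p = 3.40e-06). Many of these genes have a near-identical paralog, and since only reads with a unique position were kept, the values of a pair can lose reads they share. *DBP2*, for an RNA helicase, had 3642, 3798 and 2964 in *TRA1* and 437, 431 and 388 in *tra1Q3* cells (log2 fold change -3.05, SE 0.12, adjusted p = 3.32e-06), and *MAK16* and *NOP14*, for assembly factors of the large and the small subunit, were at -2.87 and -2.58. Without *TRA1* replicate 2 the count for ribosome assembly was 16 lower and 1 higher with a median of -0.63, that without *tra1Q3* replicate 2 had 1 higher, and that for ribosomal proteins without *TRA1* replicate 2 was 57 lower with a median of -0.82.

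**Figure D4:**
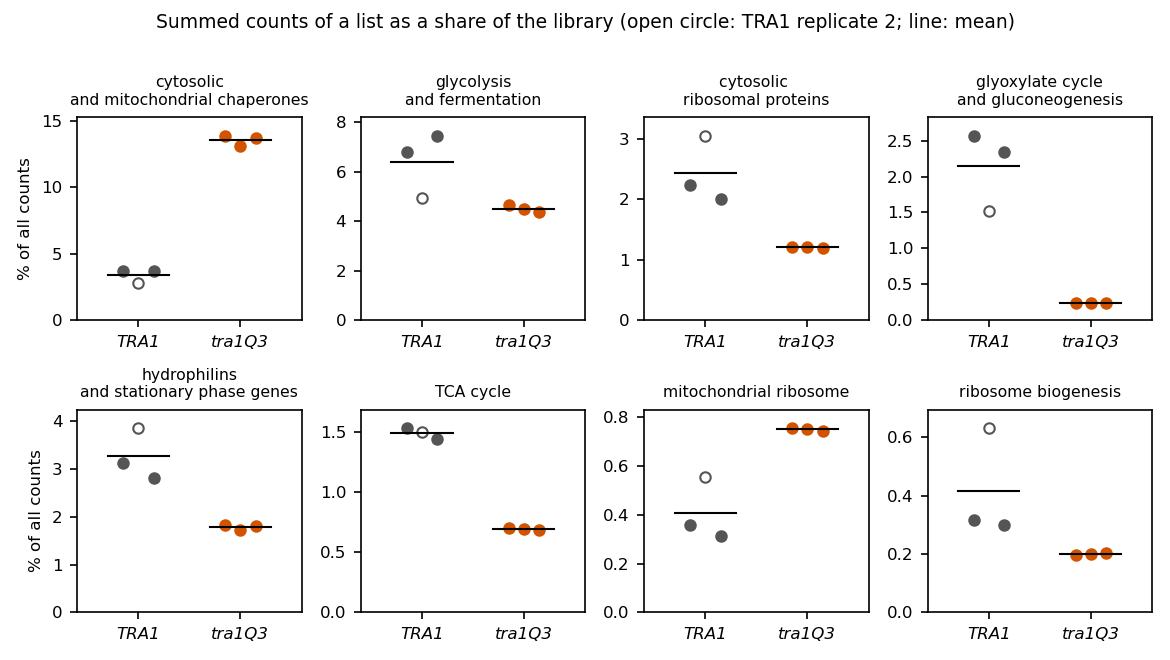
Summed counts of 8 gene lists as a percentage of all counts of a library (vertical axes from 0), *TRA1* in grey and *tra1Q3* in orange, with the mean as a line and *TRA1* replicate 2 as an open circle. Chaperones took 13.6% ± 0.384 in *tra1Q3* against 3.39% ± 0.526 in *TRA1* (mean and SD of 3), and replicate 2 lies highest of the 6 in both ribosome lists that were lower in *tra1Q3*.

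SAGA and NuA4 are the complexes that Tra1 joins. Of 19 SAGA genes, 2 were called higher (10.5%) and 2 lower (10.5%; median 0.12), against 16.4% and 15.6% of all genes, and with library totals 2 higher and 5 lower (median -0.18). *ADA2*, for the adaptor of the acetyltransferase module, had 471, 583 and 523 in *TRA1* and 3417, 3079 and 3498 in *tra1Q3* cells (log2 fold change 2.66, SE 0.11, adjusted p = 3.34e-06), about 6-fold apart with no overlap. The 2 called lower were *HFI1*, for a core scaffold subunit, with mean counts of 541 ± 44.7 in *TRA1* and 266 ± 26.7 in *tra1Q3* cells (log2 fold change -1.03, SE 0.12, adjusted p = 2.50e-04), and *SUS1*, for a subunit of the deubiquitinating module, at -1.02. Both lay at the threshold: without *TRA1* replicate 2 their fold changes were -0.96 and -0.91 and neither was called, and the call was also lost for *HFI1* without *tra1Q3* replicate 4 (-0.94) and for *SUS1* without *tra1Q3* replicate 3 (-0.9988). The other genes of the deubiquitinating module, *UBP8* (-0.90), *SGF11* (-0.84) and *SGF73* (-0.75), lay on the same side of zero and did not pass the fold threshold. Their adjusted p in the edgeR test was 0.00237, 2.29e-04 and 1.20e-04 in the same order, and 71.5% of all genes reached 0.05. Of 13 NuA4 genes, *TRA1* and *ARP4*, for an actin-related subunit (1.35), were called higher (15.4%) and none lower (median 0.72). Leaving out *TRA1* replicate 2 gave 4 higher, and library totals 1 lower.

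Of 24 antioxidant genes, 6 were called lower and 2 higher (median -0.34), and with library totals 8 lower and 1 higher. *CTT1*, for cytosolic catalase, had 51734, 23687 and 59368 in *TRA1* and 4393, 5479 and 5266 in *tra1Q3* cells (log2 fold change -3.15, SE 0.34, adjusted p = 1.47e-04), and *CTA1*, for the peroxisomal catalase, was at -1.88. *TRA1* replicate 2 had the lowest *CTT1* value of its genotype, and without it the fold change was -3.46. *TRR1*, for cytosolic thioredoxin reductase, was higher, with 2924, 2205 and 2806 in *TRA1* and 15304, 14213 and 14759 in *tra1Q3* cells (log2 fold change 2.48, SE 0.13, adjusted p = 6.49e-06). Of 12 hydrophilin and stationary phase genes, 5 were lower (41.7%) and 2 higher (16.7%). Their summed share was 3.13%, 3.86% and 2.82% in the *TRA1* libraries and 1.82%, 1.74% and 1.80% in the *tra1Q3* libraries. Beside *SIP18* and *GRE1* the stationary phase gene *SPG4* was lower (-2.26), while *SPI1* and *TMA10* (2.37) were higher.

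Genes for protein folding and degradation elsewhere in the cell had fewer calls. Of 21 genes for folding in the endoplasmic reticulum, 5 were called higher (23.8%, against 16.4% of all genes) and 0 lower, with a median of 0.28. With library totals 3 were higher (median -0.02). *KAR2*, for the Hsp70 of that compartment, had 11045, 9177 and 11373 in *TRA1* and 66633, 74618 and 70028 in *tra1Q3* cells (log2 fold change 2.74, SE 0.15, adjusted p = 6.44e-06), and *PDI1*, for protein disulfide isomerase, was at 1.32. Of 34 proteasome genes, 1 was higher (2.94%) and 3 lower (8.82%), with a median of -0.30 (8 lower with library totals): *RPN4*, for the transcription factor of the proteasome genes, had 6769, 5174 and 7251 in *TRA1* and 19424, 18904 and 19318 in *tra1Q3* cells (log2 fold change 1.59, SE 0.14, adjusted p = 5.86e-05), and *UMP1*, for an assembly factor of the core, was at -1.59. The control element that Rpn4 binds, GGTGGCAAA on either strand, was in 79.4% of these promoters against 1.14% of all. Of 40 autophagy and vacuolar protease genes, 10 were lower and 1 higher (median -0.64; 18 lower with library totals and 2 higher without *TRA1* replicate 1), among them *ATG36*, for the receptor of peroxisome degradation (-2.57), and *ATG1*, for the kinase that starts autophagy (-2.33).

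Genes of sugar breakdown differed at some steps. Of 27 glycolytic and fermentation genes, 12 were called lower (44.4%) and 4 higher (14.8%), against 15.6% and 16.4% of all genes (median -0.81). Beside *PDC6*, the glucose-repressed alcohol dehydrogenase gene *ADH2* had 7772, 5398 and 4205 in *TRA1* and 498, 532 and 489.8 in *tra1Q3* cells (log2 fold change -3.51, SE 0.23, adjusted p = 1.50e-05), and *FBA1*, for aldolase, was at -2.09. *HXK1*, for a hexokinase, was at 4.38, with 143 bases of its coding sequence shared with another gene. Of 17 tested hexose transporter and sensor genes, 4 were higher (23.5%) and 1 lower (5.88%). *HXT7*, for a high-affinity transporter, had 2836, 3681 and 1865 in *TRA1* and 23074, 21554 and 23048 in *tra1Q3* cells (log2 fold change 3.01, SE 0.25, adjusted p = 3.64e-05), but only 5.08% of its windows are unique, because *HXT6* is nearly the same gene, and its values rest on few positions. *HXT4*, for another high-affinity transporter, was at 2.22, and *HXT5*, for a transporter of slowly growing cells, was lower, with 137957, 81307 and 141545 in *TRA1* and 16322, 17940.4 and 18248 in *tra1Q3* cells (log2 fold change -2.78, SE 0.24, adjusted p = 5.25e-05).

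Storage carbohydrate genes went both ways, with more of them higher. Of 17 trehalose and glycogen genes, 5 were called higher (29.4%) and 2 lower (11.8%), against 16.4% and 15.6% of all genes (median 0.61). *GSY2*, for glycogen synthase, had 5092, 2985 and 5377 in *TRA1* and 25355, 26347 and 28165 in *tra1Q3* cells (log2 fold change 2.57, SE 0.23, adjusted p = 5.73e-05), and *TPS2*, for trehalose-6-phosphate phosphatase, was at 1.64. Genes of glycogen breakdown were called higher as well, *GPH1*, for glycogen phosphorylase, at 2.90 and *GDB1*, for the debranching enzyme, at 1.25. *UGP1*, for the enzyme that makes UDP-glucose, was at 2.44. The coding sequences of *GPH1* and *UGP1* share 366 and 30 bases with another one. *GLG1*, for the glycogenin that primes glycogen, was lower (-2.08). *TRA1* replicate 2 lay below the other *TRA1* libraries for this list (median deviation -0.75), and without it 5 were higher and 2 lower with a median of 0.53.

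Genes that respond to scarce metals were lower. Of 8 genes of the zinc regulon, 7 were called lower and 0 higher (median -2.66). *ZAP1*, for the zinc-sensing activator of the regulon, had 8004, 8444 and 9746 in *TRA1* and 999, 1071 and 1045 in *tra1Q3* cells (log2 fold change -3.07, SE 0.11, adjusted p = 3.00e-06), *ADH4*, a dehydrogenase gene induced by zinc shortage, was at -4.60, and the high- and low-affinity zinc transporter genes *ZRT1* and *ZRT2* were at -2.36 and -2.96. Of 19 iron uptake genes, 9 were lower and 1 higher (median -0.97). *FIT2*, for a cell wall mannoprotein that holds iron siderophores, had 6050.2, 5319.8 and 4141 in *TRA1* and 431, 425 and 360.1 in *tra1Q3* cells (log2 fold change -3.67, SE 0.17, adjusted p = 4.01e-06), and *TIS11*, for an RNA-binding protein of the iron response, was at -4.25. *FRE6*, for a vacuolar iron reductase, was the one called higher (1.36).

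Phosphate genes were lower in part and nitrogen genes higher in part. Of 15 genes of the phosphate regulon, 5 were lower and 0 higher (median -0.59). *PHO84*, for the high-affinity phosphate transporter, had 6884, 6061 and 10455 in *TRA1* and 546, 623 and 557 in *tra1Q3* cells (log2 fold change -3.76, SE 0.22, adjusted p = 1.02e-05), while *PHO5*, for the repressible acid phosphatase, was not called (0.74). Of 20 genes under nitrogen catabolite repression, 11 were higher and 1 lower, most of those called lying within 4-fold. *CPS1*, for a vacuolar carboxypeptidase, had 2580.0, 1957 and 2539 in *TRA1* and 16934, 19194 and 18205 in *tra1Q3* cells (log2 fold change 2.94, SE 0.14, adjusted p = 5.07e-06), *DAL3*, for an allantoin pathway enzyme, was at 2.33, and *GAP1*, for the general amino acid permease, at 1.67. With library totals 8 were higher and 1 lower (median 0.83).

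Among 45 amino acid synthesis genes, 14 were called lower (31.1%) and 5 higher (11.1%), against 15.6% and 16.4% of all genes (median -0.39). With library totals 18 were lower and 3 higher. The largest falls were in lysine genes: *LYS20*, for homocitrate synthase, had 15690.3, 11089 and 13712 in *TRA1* and 2095, 2661 and 2294 in *tra1Q3* cells (log2 fold change -2.52, SE 0.16, adjusted p = 1.39e-05), and *LYS12* was at -1.78 and *LYS21* at -1.57. Only 75.6% of the 100-base windows of *LYS20* and 76.3% of those of *LYS21* are unique. Not all lysine genes led: *LYS2*, at -1.21, fell less than *ILV5* (-1.50) and *ARO4* (-1.46), and *LYS1* was not called (-0.60). *LEU1* and *ASN1*, for enzymes of leucine and asparagine synthesis, were higher (1.71 and 1.69). Of 25 sulfate and methionine genes, 8 were higher (32.0%) and 2 lower (8.00%), or 1 lower without *TRA1* replicate 1 or 3 or *tra1Q3* replicate 2. *MUP3*, for a low-affinity methionine permease, was at 2.55 and *MMP1*, for the S-methylmethionine permease, at -1.37.

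Of 18 phospholipid and fatty acid genes, 6 were called higher and 0 lower (median 0.56). *CHO2*, for the first methyltransferase of phosphatidylcholine synthesis, had 3912, 4232 and 3512 in *TRA1* and 30069.9, 29532 and 29679.6 in *tra1Q3* cells (log2 fold change 2.94, SE 0.12, adjusted p = 3.20e-06), *OPI3*, for the next methyltransferase, was at 2.07, and the inositol transporter and synthase genes *ITR1* and *INO1* were at 2.75 and 1.97. *OLE1*, for the fatty acid desaturase, had 49061, 11957 and 75495 against 18929, 17674 and 20909.6 in the same order, with *TRA1* replicate 2 below every *tra1Q3* library and the other *TRA1* replicates above them, so the genotypes overlapped. Without that replicate *OLE1* was called lower (-1.70, adjusted p = 1.28e-07). Of 23 ergosterol genes, 5 were called lower (21.7%, against 15.6% of all genes) and 0 higher (median -0.53), with *ERG5*, for a sterol desaturase, at -2.66.

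Of 32 cell wall genes, 6 were called higher (18.8%) and 4 lower (12.5%; median -0.14), shares near those of all genes (16.4% and 15.6%). Without *TRA1* replicate 2, in which 9 of them lay over 2-fold below the other *TRA1* libraries, 6 were higher and 6 lower. With library totals 8 were lower. *SCW4*, for a cell wall glucanase-like protein, had 1207, 857 and 1055 in *TRA1* and 13026, 11363 and 12685 in *tra1Q3* cells (log2 fold change 3.57, SE 0.15, adjusted p = 3.40e-06), and its relative *SCW10* was at 1.93. *PIR3*, for a wall protein with internal repeats, was at -1.48.

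**Figure D5:**
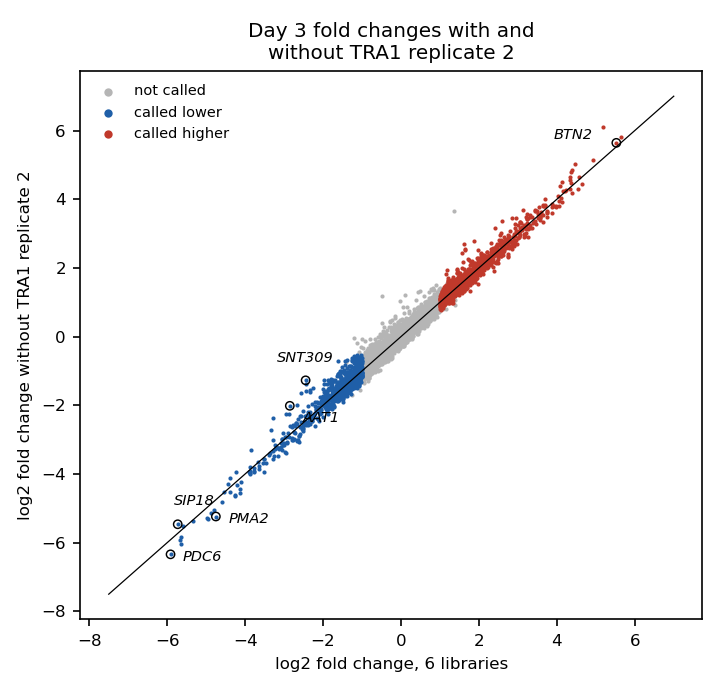
Log2 fold change of *tra1Q3* over *TRA1* from all 6 libraries (horizontal axis) against the same fit without *TRA1* replicate 2 (vertical axis), 1 point a gene, red called higher and blue called lower with all 6, the line marking equality. Among the labelled genes, *PMA2*, *PDC6*, *AAT1* and *SNT309* moved with the omission, to -5.24, -6.34, -2.02 and -1.27, and none of them changed its sign.

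Over the whole table most calls were kept without the library that stood apart: 2008 genes were called without *TRA1* replicate 2, and 1809 of these were among the 1986 called with it. The genes in which that library differed most included *PMA2*, a plasma membrane proton pump isoform, with 20324, 3255 and 24958 in *TRA1* and 612, 617 and 574 in *tra1Q3* cells, and *OYE3*, an NADPH oxidoreductase, with 7029, 1680.4 and 9866 against 1064, 956 and 1007 in the same order. In both, *TRA1* replicate 2 was the *TRA1* library nearest to *tra1Q3*. *AAT1*, a mitochondrial aspartate aminotransferase, and *SNT309*, a splicing factor, were called lower with fold changes of -2.85 and -2.45, and there replicate 2 was the highest library of the 6.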

How the data were processed

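The deposited table held raw counts per gene for 12 libraries, in separate columns for read pairs and for reads whose mate was lost, which were summed per library. Per the labels and the study's methods, the authors trimmed reads with Trimmomatic, kept uniquely mapped reads aligned by STAR 2.5.4b to R64-2-1, counted them with featureCounts 1.6.0 and tested with DESeq2 1.26.0. The labels call the libraries stranded, but the strand setting of the counting is not given in the sources used here. Gene symbols came from the RefSeq annotation of R64, which matched 6008 of 6691 identifiers. An entry of 6 coding segments without a gene name (0.129% of day 3 counts) was left out.

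Genes with at least 10 counts in 3 of the 6 libraries were tested with edgeR 4.0.16 (R 4.3.3, TMM scaling, quasi-likelihood test, Benjamini-Hochberg adjustment over all genes tested). A gene was called at an adjusted p of at most 0.05 and an absolute log2 fold change over 1. To print a normalized count, a count was set against the effective (TMM) size of its library and brought to the mean effective size of the 6. The SE of a fold change is its size over the root of the F statistic.

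Named genes were *TRA1*, the mating and marker genes, the 10 called genes of largest fold in each direction without overlap in counts or coding sequence, and up to 4 called members of each of 37 lists with the largest fold, plus members going the other way. *GEP4* and some members beyond these were added after their values were seen. The members and lists were chosen with earlier results of these data known. Of the listed names, 4 had no match in the table. Alternatives were DESeq2 1.42.0 (fit and size factors), library totals, upper quartile scaling, no filter, stricter fold thresholds, a replicate block, a fit over all 12 libraries, read pairs alone and leaving out each library.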

Additional observations from a re-analysis of the deposited data

How the results depend on the processing

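The 1986 calls (1018 higher, 968 lower) came out as 1924 to 2008 when single libraries were left out, with 989 to 1067 higher and 931 to 967 lower, and as 1984 to 2027 with DESeq2, its size factors, upper quartile scaling, no filter on low counts, read pairs alone or a fit over all 12 libraries. Of the calls of edgeR, 1983 were also made by DESeq2. Scaling by library totals gave 1463 lower and 702 higher, and the fit over all 12 libraries 1117 lower and 910 higher. Past a log2 fold change of 2 there were 501 calls, 314 higher and 187 lower, and a test against a fold of 2 gave 1237, with 689 higher and 548 lower.

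The groups shared replicate numbers 2 and 3 only, and their same-numbered libraries did not deviate together (correlations of -0.03 and -0.01 over 6208 genes). With the replicate number as a block in the fit, 1995 genes were called, 1040 higher and 955 lower. Replicate 1 of *TRA1* and replicate 4 of *tra1Q3* had no partner in that fit. The genotype effect there rested on replicates 2 and 3, *TRA1* replicate 2 among them. *SPO11*, which was not called, changed its sign under the block (0.048) and ran from -0.41 to 0.018 when single libraries were left out.

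For the 194 genes tracked by name there were 2910 values under the alternatives, of which 62 in 28 genes lost a call and 8 in 4 genes gained one. With library totals *STE6*, *ASG7*, *IRE1*, *ATG5*, *HTA1*, *HTA2*, *CLB2* and *CLB5* were no longer called. Of 1184 counts of called list members, 113 moved by more than 1.5 times, in 50 of 74 counts.

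There were 3 libraries a genotype, and *TRA1* replicate 2 stood apart. The median absolute log2 difference between replicates was 0.29 and 0.33 for the *TRA1* pairs with replicate 2, and 0.12 for *TRA1* replicates 1 and 3. Among *tra1Q3* pairs it was 0.071 to 0.085. How much of this spread came from counting was not tested.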

Other observations

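Of 10 histone genes, 4 were higher and 0 lower (median 0.71; 2 higher with library totals), and of 10 sporulation genes 4 were lower. The spore wall gene *SPS100* had 110593, 50712 and 151481 in *TRA1* and 2953, 3542 and 3523 in *tra1Q3* cells, with *TRA1* replicate 2 the lowest of its genotype. *CAN1*, for the arginine permease, which carries the can1-100 allele in both strains, was the one marker gene called (4457, 3489 and 3402 against 13470.0, 16301 and 14485, log2 fold change 1.96, SE 0.14, adjusted p = 2.28e-05, quasi-likelihood test of edgeR).

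The 23 genes of mitochondrial DNA that passed the filter on low counts had a median of 2.93, with 22 called higher. The 3 *tra1Q3* libraries alone could carry a gene past that filter, and *Q0092* had only 5.8, 13.2 and 9.4 in *TRA1*. Among nuclear chromosomes the medians ran from -0.15 on IX to 0.28 on VI, where the difference from all genes was 0.30 (SD 0.046 over the 3 *tra1Q3* libraries) and 32 of 134 genes were called higher (23.9%). Of 95 genes within 10 kb of a chromosome end, 33 were called higher (34.7%) and 12 lower (12.6%), against 15.7% and 15.5% of the 5824 genes over 30 kb away. Across genes, Spearman's rho of the fold change with coding length was -0.08 and with the mean normalized count 0.06 (6208 genes, which are not independent).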
